A study of Homo sapiens with 6 samples.

Results

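The subject of this report is the set of nuclear genes for the subunits of oxidative phosphorylation, complexes I to V of the mitochondrial inner membrane, in prostate stromal cells with and without knockdown of CAVIN1. Its members were taken by symbol alone (the NDUFA, NDUFB, NDUFC, NDUFS and NDUFV series, SDHA to SDHD, the UQCR series with CYC1, the COX5 to COX8 series and the ATP5 series), and 83 of the 33117 genes in the table matched. They are 36 genes of complex I, 4 of complex II, 11 of complex III, 15 of complex IV (with NDUFA4, which is now placed there) and 17 of complex V. The symbols are the older ones, so that ATP5G1 is now ATP5MC1 and ATP5I is now ATP5ME. ATP5S is now DMAC2L and no longer carries an ATP synthase symbol. It was counted with complex V by its older symbol, outside the parts of that complex given below. The series asked what loss of CAVIN1, a coat protein of caveolae, does to gene expression in WPMY-1 cells, an immortalised line of normal human prostate stroma. It holds 6 total RNA libraries, 3 of cells with a lentiviral hairpin against CAVIN1 (shCAVIN1) and 3 of cells with the pLKO1 vector (shCtrl). Virus was made in HEK293T cells, stable knockdown clones were chosen by their puromycin resistance, and all cells were kept in DMEM with fetal bovine serum. A single hairpin was used, the number of clones is not given in the labels, and the replicates are called independent without saying whether each came from its own transduction, so a p-value here speaks only of the spread among these 6 libraries.

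Oxidative phosphorylation carries electrons from NADH (through complex I) and from succinate (through complex II) by way of coenzyme Q, complex III and cytochrome c to oxygen at complex IV, and complex V, the ATP synthase, uses the proton gradient this builds to make ATP. Complex I has a matrix arm, which binds NADH and holds the flavin and the iron-sulfur clusters, and a membrane arm, which pumps protons. Complexes I, III, IV and V are built from both nuclear and mitochondrial genes, while complex II is all nuclear. Genes of the mitochondrial genome were not analysed here.

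The values are FPKM (fragments divided by transcript length and by the fragments mapped in the library), so levels can be compared between genes. CAVIN1, listed as PTRF, stood at 134, 139 and 150.2 FPKM in shCAVIN1 libraries, against 329.6, 347 and 330.3 FPKM in shCtrl libraries (log2 -1.25, SE 0.0586, limma adjusted p = 2.88e-05). Between 19649 and 20435 genes were above 0 in a library, and the 10 most abundant rows took 19% to 42.3% of the FPKM sum, lowest in shCtrl replicate 2, where the abundant RNA RN7SK was listed at 0. The summed FPKM of 10 fibroblast and stroma markers was 4500 to 4641 in shCAVIN1 and 2926 to 3092 in shCtrl, and no marker of that list averaged under 0.5. The higher sum came from S100A6 (1512 FPKM in shCAVIN1 and 430.2 in shCtrl) and LGALS1 (2508 in shCAVIN1 and 1757 in shCtrl), while COL1A2, COL6A1, COL6A2, THY1 and FN1 passed as lower and VIM, COL1A1 and PDGFRB did not pass. The sum of 6 smooth muscle markers was 386 to 408 in shCAVIN1 and 718 to 786 in shCtrl, with TAGLN and CNN1 lower but ACTA2 and MYLK higher. The sum of 8 prostate epithelium markers was 240.5 to 255 in shCAVIN1 and 397 to 431 in shCtrl, with 6 of the 8 averaging under 0.5 and KLK3 at 0. KRT18 was lower and KRT8 higher. Markers of endothelium, leukocytes, striated muscle and kidney summed to under 1.5 in every library, with CD3E and PAX2 at 0. Among them TEK passed as higher (0.941 FPKM in shCAVIN1 and 0.227 in shCtrl) and CD14 as lower (0.508 in shCAVIN1 and 1.22 in shCtrl). All others of these lists averaged under 0.5. The part of these marker differences in the results below was not tested, and in bulk RNA fewer cells of a type and less RNA per cell cannot be told apart.

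Of the 83 genes, 75 reached a mean FPKM of 0.5 over the 6 libraries and were tested. The 8 below that level were ATP5L2, COX6A2, COX6B2, COX7A1, COX7B2, COX8C, UQCRBP1 and UQCRHL. Of the 75, 35 rose, 14 fell and 26 did not pass the test in shCAVIN1 (adjusted p under 0.05, limma over all 13941 tested genes). The share past the threshold was 65.3%, beside a background of 55.5% of all tested genes (27.3% higher and 28.2% lower). The median log2 fold change was 0.12 for the subunits and -0.02 for all tested genes. The changes were small: no subunit moved by 2-fold, and 44 of the 49 that passed changed by under 1.5-fold, as did 67.5% of all genes that passed. All 3 shCAVIN1 libraries lay above all 3 shCtrl libraries for 36 subunits and below them for 18, beside a background of 64.6% of tested genes without overlap, 31.3% above and 33.3% below. Scaling each library to the same FPKM sum (TPM) left 7 higher and 1 lower, with a median of 0.24 where the median of all tested genes was 0.09. That is 10.7% of the subunits, beside 24.5% of all tested genes on the same scale, so the share was below the background there. The 8 that passed on that scale were NDUFA7, NDUFB1, NDUFB11, NDUFC1, NDUFV2, ATP5G1 and ATP5I among the higher and NDUFV1 as the lower one. With 1 library left out, 27 of the 49 calls held each time, and the counts fell to 21 higher and 7 lower without shCAVIN1 replicate 2, the same without replicate 3, 24 and 9 without shCAVIN1 replicate 1, and 22 and 12 without shCtrl replicate 3. The shares of subunits past the threshold were then 37.3%, 37.3%, 44.0% and 45.3%, beside 44.7%, 45.6%, 48.0% and 46.7% of all tested genes. They were 53.3% without shCtrl replicate 1 and 74.7% without shCtrl replicate 2, beside 52.1% and 61.1%. The share of the subunits was thus above the background with all 6 libraries, and below it in 4 of the 6 fits with 1 left out.

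**Figure D1:**
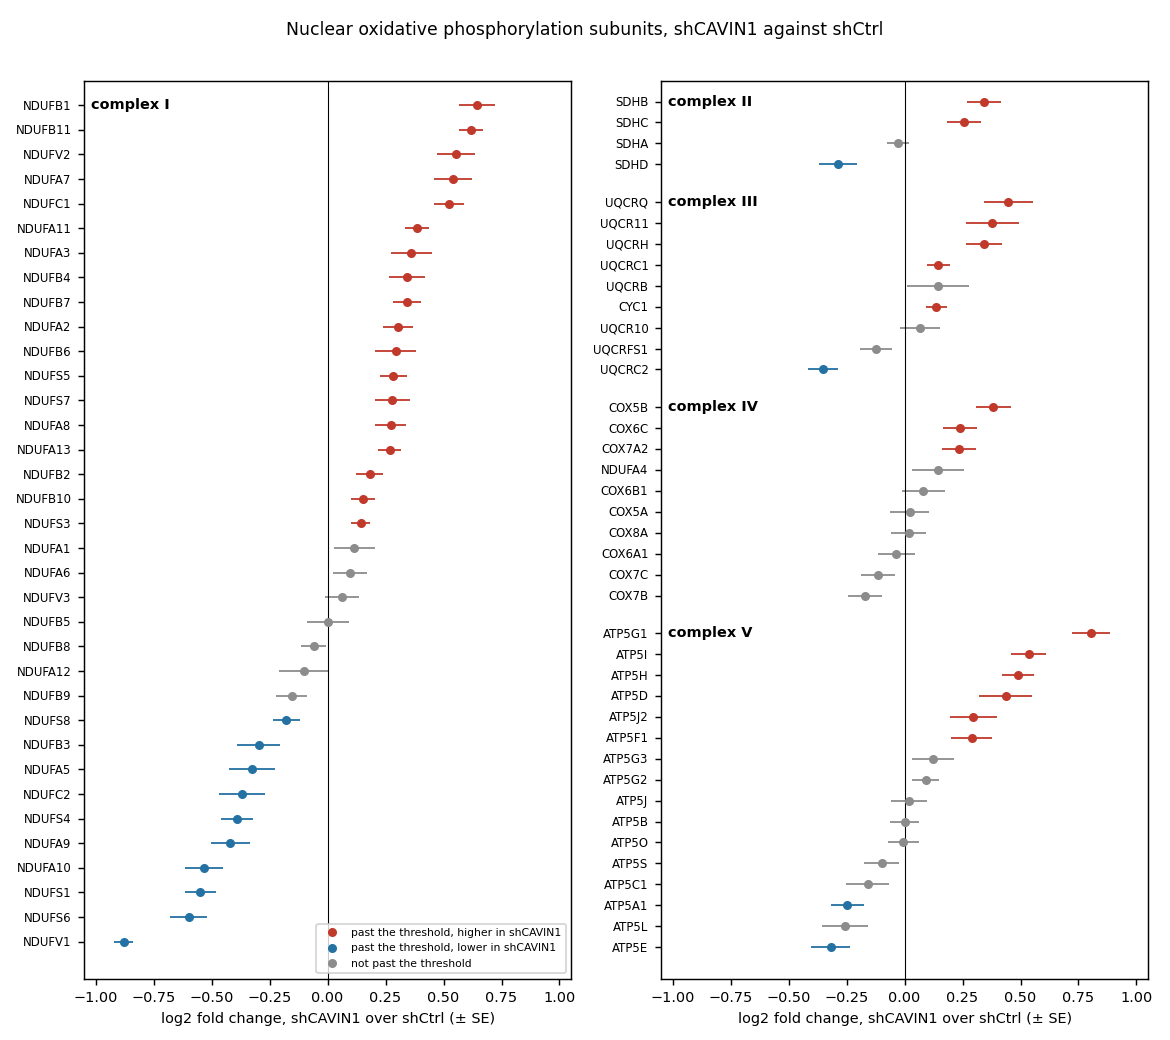
Log2 fold change (shCAVIN1 over shCtrl, on the log2(FPKM + 0.5) scale) of tested subunit genes by complex, with limma standard errors as bars and n = 3 libraries per group. Complex I spans -0.88 (NDUFV1) to 0.64 (NDUFB1), complex IV has no gene past the threshold on the lower side, and ATP5G1 at 0.81 is the highest point.

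Complex I held the widest range of changes among the complexes, with 19 genes higher, 10 lower and 7 not past the test among 36, and a median of 0.15. The matrix arm split, with 6 of 16 higher and 7 lower at a median of -0.02, while 13 of 20 membrane arm genes were higher and 3 lower at a median of 0.27. The difference between the arms was not tested. NDUFV1, the subunit that binds NADH and the flavin, had the largest fall of all 75 genes. It stood at 75.4, 73.4 and 75.6 FPKM in shCAVIN1 libraries, against 134, 143 and 138 FPKM in shCtrl libraries. The groups lay far apart and the mean was 74.8 ± 1.19 FPKM in shCAVIN1 and 138 ± 4.25 FPKM in shCtrl (SD, n = 3 each), at log2 -0.88 (SE 0.0417, limma adjusted p = 2.99e-05). NDUFV1 lies on chromosome 11 at 67605653 to 67612554 on the plus strand (GRCh38).

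NDUFV2, an iron-sulfur subunit that sits beside NDUFV1 in the same module, went the other way. Its values were 108, 119 and 123 FPKM in shCAVIN1, against 72.3, 86.7 and 79.6 FPKM in shCtrl, with no overlap (log2 0.55, SE 0.0820, limma adjusted p = 0.00187). NDUFS1, the large iron-sulfur subunit of the matrix arm, was lower in each shCAVIN1 library. It stood at 28.3, 28.7 and 28.6 FPKM in shCAVIN1 and 39.0, 46.4 and 40.9 FPKM in shCtrl (log2 -0.55, limma adjusted p = 0.000898). Among the accessory subunits of this arm, NDUFS6 fell. It had 45.4, 47.5 and 49.6 FPKM in shCAVIN1 and 64.2, 77.3 and 75.7 FPKM in shCtrl, well apart (log2 -0.60, limma adjusted p = 0.00129). NDUFA7, another accessory subunit, rose, with 86.8, 88.4 and 92.5 FPKM in shCAVIN1 and 57.1, 69.4 and 57.8 FPKM in shCtrl (log2 0.54, limma adjusted p = 0.00216). Further matrix arm genes past the threshold were NDUFA2, NDUFS3 and NDUFS7 among the higher and NDUFA5, NDUFA9, NDUFS4 and NDUFS8 among the lower, with log2 fold changes between -0.42 and 0.31. NDUFS3 and NDUFS8 are core subunits that passed at log2 fold changes of 0.14 and -0.18, and both calls were lost without shCtrl replicate 1 or any of the shCAVIN1 libraries (NDUFS3 also without shCtrl replicate 3), with adjusted p up to 0.114 and 0.135. The calls of NDUFA5 and NDUFS7 were lost without shCtrl replicate 3, shCAVIN1 replicate 2 or shCAVIN1 replicate 3, with adjusted p up to 0.0999 and 0.0715, and that of NDUFA5 also without shCAVIN1 replicate 1. NDUFA6, NDUFA12 and NDUFV3 did not pass.

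The 250 bases before the RefSeq starts of NDUFV1 and NDUFV2 are shown because these partners moved in opposite directions. They come from RefSeq (GRCh38.p14) and are written 5′ to 3′ on the strand of the gene, chr11:67606686-67606935 (plus strand) for NDUFV1 and chr18:9102449-9102698 (plus strand) for NDUFV2. By the GENCODE span of NDUFV1 given above, its stretch lies inside the gene, because the RefSeq start is further downstream. Capitals, where a sequence has them, mark the letters of a motif that is described below, read on either strand, and neither of these stretches has any.
NDUFV1: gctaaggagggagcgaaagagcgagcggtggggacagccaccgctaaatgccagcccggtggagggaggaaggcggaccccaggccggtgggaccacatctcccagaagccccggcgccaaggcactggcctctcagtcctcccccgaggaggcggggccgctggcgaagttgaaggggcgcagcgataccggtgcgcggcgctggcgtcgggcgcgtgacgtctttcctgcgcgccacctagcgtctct
NDUFV2: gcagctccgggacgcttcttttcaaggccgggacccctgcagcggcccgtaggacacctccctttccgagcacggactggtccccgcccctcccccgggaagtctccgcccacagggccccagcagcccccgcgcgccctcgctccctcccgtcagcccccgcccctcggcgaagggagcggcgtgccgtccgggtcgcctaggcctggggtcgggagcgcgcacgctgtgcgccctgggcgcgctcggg

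In the membrane arm the accessory subunits NDUFB1 and NDUFB11 rose most. NDUFB1 stood at 145, 144 and 137 FPKM in shCAVIN1, against 81.1, 97.9 and 93.5 FPKM in shCtrl (log2 0.64, SE 0.0773, limma adjusted p = 0.000807). NDUFB11, which lies on the X chromosome, had 98.7, 99.6 and 98.8 FPKM in shCAVIN1 and 63.8, 68.2 and 61.2 FPKM in shCtrl (log2 0.62, SE 0.0497, limma adjusted p = 0.000174). In both the lowest shCAVIN1 library stood well above the highest shCtrl library. NDUFC1 followed at a log2 fold change of 0.52, and the other rises of this arm, NDUFA3, NDUFA8, NDUFA11, NDUFA13, NDUFB2, NDUFB4, NDUFB6, NDUFB7, NDUFB10 and NDUFS5, lay between 0.15 and 0.38. NDUFA10 was the largest fall of the arm, at 22.0, 20.7 and 21.1 FPKM in shCAVIN1 and 28.2, 34.9 and 30.3 FPKM in shCtrl, without overlap (log2 -0.53, limma adjusted p = 0.0021). NDUFB3 and NDUFC2 also fell, at log2 fold changes of -0.30 and -0.37.

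NDUFB9 and NDUFA1 had the highest mean levels of complex I and neither passed, nor did NDUFB5 and NDUFB8. NDUFB9 stood at 289, 291 and 282 FPKM in shCAVIN1 and 297, 346 and 318 FPKM in shCtrl, lower in each library but with an adjusted p of 0.094 by limma. NDUFA1, also on the X chromosome, had 252, 245 and 243 FPKM in shCAVIN1 and 199, 246 and 241 FPKM in shCtrl, and the groups overlapped. In this arm, leaving out single libraries ended the calls of NDUFB2, NDUFB6 and NDUFB10 (each shCAVIN1 library and shCtrl replicates 1 and 3), NDUFB3 (each shCAVIN1 library and shCtrl replicate 3), NDUFC2 (shCAVIN1 replicates 2 and 3) and NDUFA3 (shCAVIN1 replicate 3). Their largest adjusted p values were 0.117, 0.097, 0.148, 0.0984, 0.0638 and 0.0525 by limma.

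Complex II, succinate dehydrogenase, has 4 subunits, and 2 rose and 1 fell, with a median of 0.12. SDHA, the flavin subunit that oxidises succinate, did not pass. It stood at 106, 104 and 99.1 FPKM in shCAVIN1 and 101, 105 and 109 FPKM in shCtrl, with the groups overlapping. SDHB, the iron-sulfur subunit, was higher in each shCAVIN1 library, at 76.5, 77.9 and 75.8 FPKM in shCAVIN1 and 55.5, 67.0 and 59.2 FPKM in shCtrl (log2 0.34, SE 0.0721, limma adjusted p = 0.00789). The membrane anchors SDHC and SDHD moved apart. SDHC, the lower of the pair in FPKM, had 14.9, 15.3 and 12.9 FPKM in shCAVIN1 and 11.4, 11.9 and 12.4 FPKM in shCtrl, with groups that nearly touch (log2 0.26, limma adjusted p = 0.0251). SDHD had 103, 102 and 105 FPKM in shCAVIN1 and 119, 143 and 117 FPKM in shCtrl, with no overlap (log2 -0.29, limma adjusted p = 0.0249). The SDHC call was lost without shCAVIN1 replicate 1 or 2 or shCtrl replicate 1 (adjusted p up to 0.0854) and the SDHD call without any 1 of the shCAVIN1 libraries (up to 0.0777). The stretch before the SDHD start (chr11:112086623-112086872, plus strand, RefSeq, GRCh38.p14) is shown because it holds letters of 2 of the motifs described below in a gene that fell.
SDHD: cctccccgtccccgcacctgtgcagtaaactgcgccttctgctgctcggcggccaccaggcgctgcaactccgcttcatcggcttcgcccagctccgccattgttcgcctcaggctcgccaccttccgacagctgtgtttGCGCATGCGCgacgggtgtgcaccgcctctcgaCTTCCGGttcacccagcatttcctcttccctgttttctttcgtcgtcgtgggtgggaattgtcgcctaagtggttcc

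Complex III, which passes electrons from reduced coenzyme Q to cytochrome c, had 5 genes higher, 1 lower and 3 not past the test among 9 tested, with a median of 0.14. UQCRQ, a small subunit in the membrane, rose most. It stood at 79.9, 78.8 and 81.2 FPKM in shCAVIN1 and 51.6, 69.2 and 56.3 FPKM in shCtrl (log2 0.45, SE 0.106, limma adjusted p = 0.0126). UQCR11, another small subunit, had 36.3, 40.7 and 41.7 FPKM in shCAVIN1 and 28.4, 35.9 and 27.2 FPKM in shCtrl (log2 0.38, limma adjusted p = 0.0301), with the groups close to touching. UQCRH, the hinge protein between cytochrome c1 and cytochrome c, had 237, 233 and 221 FPKM in shCAVIN1 and 172, 203 and 171 FPKM in shCtrl (log2 0.34, limma adjusted p = 0.0107).

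The core proteins UQCRC1 and UQCRC2, which form the matrix side of the complex together, moved in opposite directions. UQCRC1 was at 131, 131 and 131 FPKM in shCAVIN1 and 113, 125 and 117 FPKM in shCtrl (log2 0.15, limma adjusted p = 0.0436). UQCRC2 was at 78.8, 78.5 and 78.3 FPKM in shCAVIN1 and 93.0, 109 and 99.5 FPKM in shCtrl (log2 -0.35, SE 0.0641, limma adjusted p = 0.00438). Neither gene's groups overlapped, and the shCAVIN1 libraries of each were nearly alike. CYC1, cytochrome c1, carries the heme that hands electrons to cytochrome c. It had 142, 140.4 and 142 FPKM in shCAVIN1 and 127, 135 and 124 FPKM in shCtrl (log2 0.14, limma adjusted p = 0.0426). UQCRFS1, the Rieske iron-sulfur protein, had 73.5, 73.0 and 70.3 FPKM in shCAVIN1 and 75.4, 87.0 and 74.4 FPKM in shCtrl, and did not pass (adjusted p = 0.176 by limma) although the groups did not overlap. The calls of CYC1 and UQCRC1 were lost without any 1 of the libraries except shCtrl replicate 2 (adjusted p up to 0.143 and 0.127), and UQCR11 without shCAVIN1 replicate 2 or 3 or shCtrl replicate 1 or 3 (up to 0.0926). UQCRB and UQCR10 did not pass. The copy UQCRHL and the pseudogene UQCRBP1, which the symbol rule also took, were below the filter. The stretch before the UQCRC1 start (chr3:48609647-48609896, minus strand, RefSeq, GRCh38.p14) is shown as the counterpart in this complex of the SDHD stretch, with an NRF1 motif in a gene that rose.
UQCRC1: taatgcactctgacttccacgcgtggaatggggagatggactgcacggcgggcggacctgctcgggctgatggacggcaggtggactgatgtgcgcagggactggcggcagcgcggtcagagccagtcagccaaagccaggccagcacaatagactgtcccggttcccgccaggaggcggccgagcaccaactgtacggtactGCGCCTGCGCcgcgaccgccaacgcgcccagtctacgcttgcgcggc

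In complex IV, cytochrome c oxidase, 3 of 10 tested genes were higher and 0 lower by limma (also 0 lower at an unadjusted p under 0.05), with a median of 0.05. COX5B, a subunit on the matrix side, was at 268, 281 and 289.6 FPKM in shCAVIN1 and 199, 237 and 208 FPKM in shCtrl, with no overlap (log2 0.38, SE 0.0767, limma adjusted p = 0.00644). COX6C, a small membrane subunit, had 111, 107 and 108 FPKM in shCAVIN1 and 85.0, 102 and 90.1 FPKM in shCtrl (log2 0.24, limma adjusted p = 0.0326). COX8A and COX7C were the most abundant of the complex. COX8A, the most abundant of all 83 genes, stood at 764, 725 and 739 FPKM in shCAVIN1 and 718, 801 and 686 FPKM in shCtrl. COX7C had 503, 509 and 516 FPKM in shCAVIN1 and 509.9, 601 and 547 FPKM in shCtrl. The groups overlapped in both, and neither passed.

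Several subunits of complex IV come in tissue forms, and the general forms were those above the filter. COX6A1, the form of most tissues, had 379, 354 and 348 FPKM in shCAVIN1 and 341, 407 and 362 FPKM in shCtrl, while its muscle form COX6A2 was listed at 0 in all 6 libraries. COX7A2, the general form of its subunit, had 157, 164 and 168 FPKM in shCAVIN1 and 128, 152 and 136 FPKM in shCtrl (log2 0.23, limma adjusted p = 0.0339). The muscle form COX7A1 had 0.255, 0.0666 and 0.161 FPKM in shCAVIN1 and 0.0907, 0.0455 and 0.0749 FPKM in shCtrl, below the filter. COX6B1 had 176, 168 and 166 FPKM in shCAVIN1 and 161, 181 and 142 FPKM in shCtrl, with overlap, while its testis form COX6B2 had 0.284, 0.313 and 0.363 FPKM in shCAVIN1 and 0.504, 0.518 and 0.568 FPKM in shCtrl, also below the filter. COX7B stood at 294, 299 and 291 FPKM in shCAVIN1 and 315, 367 and 315 FPKM in shCtrl, lower in each library but not past the threshold (adjusted p = 0.0925 by limma). COX7B2 and COX8C, which are known from testis, were listed at 0 throughout. COX5A and NDUFA4 overlapped between the groups. The calls of COX6C and COX7A2 were lost without any 1 of the libraries except shCtrl replicate 2, with adjusted p up to 0.097 and 0.106.

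Complex V had 6 of 16 tested genes higher, 2 lower and 8 not past the test, with a median of 0.06. The catalytic F1 head had 1 of 5 higher and 2 lower. The stalk and membrane part had 4 of 7 higher and 0 lower, and the genes of the c subunit 1 of 3 higher and 0 lower. At an unadjusted p under 0.05, 1 stalk and membrane gene (ATP5L) and 0 c subunit genes were lower by limma. In the F1 head ATP5B, the catalytic beta subunit, was at 403, 411 and 399.8 FPKM in shCAVIN1 and 383, 435 and 398 FPKM in shCtrl, with the groups overlapping. Its partner ATP5A1, the alpha subunit, was lower, at 207, 207 and 202 FPKM in shCAVIN1 and 229, 269 and 234 FPKM in shCtrl (log2 -0.25, limma adjusted p = 0.0268). In the central stalk of F1, ATP5D (delta) and ATP5E (epsilon) differed in direction. ATP5D had 59.2, 71.3 and 74.6 FPKM in shCAVIN1 and 55.2, 51.4 and 44.5 FPKM in shCtrl (log2 0.44, limma adjusted p = 0.0182). ATP5E, the most abundant gene of the complex, had 482, 456 and 479 FPKM in shCAVIN1 and 566, 658 and 547 FPKM in shCtrl (log2 -0.32, limma adjusted p = 0.0188). Neither gene's groups overlapped.

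ATP5G1, ATP5G2 and ATP5G3 encode the same mature c subunit, the rotor of the membrane part. ATP5G1 rose most of all 75 genes, at 85.0, 82.1 and 91.2 FPKM in shCAVIN1, against 44.5, 54.4 and 48.6 FPKM in shCtrl. Its mean was 86.1 ± 4.65 FPKM in shCAVIN1 and 49.2 ± 4.96 FPKM in shCtrl (SD, n = 3 each), a difference well beyond the spread between libraries (log2 0.81, SE 0.0824, limma adjusted p = 0.000427). The gene lies on chromosome 17 at 48892765 to 48895871 on the plus strand (GRCh38) and has 7 pseudogenes by name in the annotation, between which fragments may have been split. ATP5G2 was the most abundant of these genes in FPKM, at 305, 315 and 309 FPKM in shCAVIN1 and 273, 305 and 295 FPKM in shCtrl, and did not pass (adjusted p = 0.219 by limma). ATP5G3 had 31.3, 33.0 and 32.9 FPKM in shCAVIN1 and 27.4, 34.3 and 28.0 FPKM in shCtrl, with overlap. In the membrane part ATP5I (subunit e) was at 361, 372 and 352 FPKM in shCAVIN1 and 226, 261 and 264 FPKM in shCtrl (log2 0.53, SE 0.0737, limma adjusted p = 0.00141). ATP5H (subunit d of the peripheral stalk) had 277, 262 and 268 FPKM in shCAVIN1 and 182, 209 and 184 FPKM in shCtrl (log2 0.49, SE 0.0676, limma adjusted p = 0.00144). In both, each shCAVIN1 library was above each shCtrl library. ATP5F1 and ATP5J2 were the other rises of this part, at 0.29 and 0.30, and ATP5J, ATP5L and ATP5O did not pass, nor did ATP5C1 (the gamma subunit) and ATP5S. In complex V the calls lost with single libraries left out were ATP5A1 (each shCAVIN1 library), ATP5E (shCAVIN1 replicates 2 and 3), ATP5D (the same and shCtrl replicate 3), ATP5J2 (each shCAVIN1 library and shCtrl replicate 3) and ATP5F1 (all but shCtrl replicate 2). The largest adjusted p values were 0.0861, 0.0736, 0.0621, 0.128 and 0.0894. Promoter stretches of the genes with the largest rises, ATP5G1 (chr17:48892537-48892786, plus strand) and ATP5I (chr4:674277-674526, minus strand), follow from RefSeq (GRCh38.p14).
ATP5G1: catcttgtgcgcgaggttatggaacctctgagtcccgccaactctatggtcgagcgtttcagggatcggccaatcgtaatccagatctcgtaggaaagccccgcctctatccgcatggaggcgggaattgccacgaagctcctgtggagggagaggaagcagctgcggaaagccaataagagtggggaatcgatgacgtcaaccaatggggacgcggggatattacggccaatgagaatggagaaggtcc
ATP5I: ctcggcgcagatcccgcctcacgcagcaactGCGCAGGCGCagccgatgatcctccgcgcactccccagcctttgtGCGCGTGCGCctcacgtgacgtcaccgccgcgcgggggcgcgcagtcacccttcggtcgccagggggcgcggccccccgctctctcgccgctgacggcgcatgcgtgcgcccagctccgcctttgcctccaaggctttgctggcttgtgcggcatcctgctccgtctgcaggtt

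**Figure D2:**
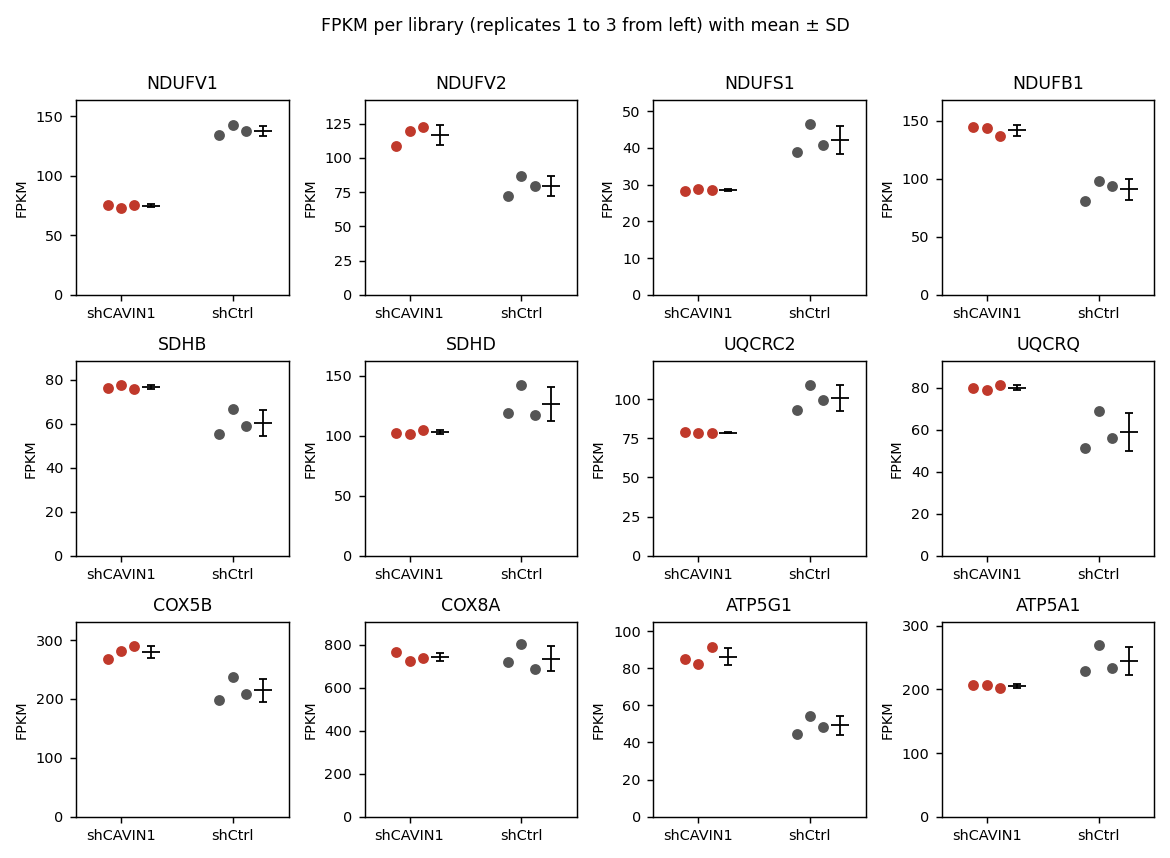
FPKM in each library for 12 subunit genes, with points for replicates 1 to 3 from left to right and the mean ± SD of the 3 libraries beside them. NDUFV1 (75.4, 73.4 and 75.6 FPKM in shCAVIN1) and ATP5G1 (85.0, 82.1 and 91.2 FPKM in shCAVIN1) lie clear of their shCtrl libraries, while COX8A overlaps.

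Since partners within a complex diverged, ratios between them were taken within each library, which no scaling between libraries can change. The pairs were chosen after their values were seen, so the ratios are a description. An exact two-sided permutation test over libraries gave p = 0.1 for each ratio below, the smallest that 3 against 3 libraries allow (0.109 after Benjamini-Hochberg adjustment over the 12 compared), so none passed. NDUFV2 stood at 1.44, 1.63 and 1.62 times NDUFV1 in shCAVIN1 libraries, against 0.539, 0.608 and 0.579 times in shCtrl libraries (means 1.56 ± 0.108 in shCAVIN1 and 0.575 ± 0.0349 in shCtrl, SD, n = 3 each), so that the more abundant of the pair in FPKM was NDUFV2 in shCAVIN1 and NDUFV1 in shCtrl. For ATP5H over ATP5A1 the ratios were 1.34, 1.26 and 1.33 in shCAVIN1 and 0.797, 0.777 and 0.784 in shCtrl, with the stalk gene above the gene of the alpha subunit in the 3 shCAVIN1 libraries and below it in the 3 shCtrl libraries. UQCRC1 over UQCRC2 averaged 1.67 ± 0.0108 in shCAVIN1 and 1.18 ± 0.0373 in shCtrl, and SDHB over SDHA averaged 0.747 ± 0.0215 in shCAVIN1 and 0.578 ± 0.0516 in shCtrl. SDHC over SDHD, the pair that anchors complex II in the membrane, averaged 0.140 ± 0.0143 in shCAVIN1 and 0.0953 ± 0.0113 in shCtrl. None of these ratios overlapped between the groups. The share of ATP5G1 in the summed FPKM of the c subunit genes was 20.1% ± 0.982 in shCAVIN1 and 13.3% ± 0.480 in shCtrl, and that of ATP5G2 was 72.3% ± 0.944 in shCAVIN1 and 78.7% ± 1.04 in shCtrl. The sum itself averaged 428 ± 5.76 FPKM in shCAVIN1 and 370.0 ± 24.4 FPKM in shCtrl, without overlap.

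**Figure D3:**
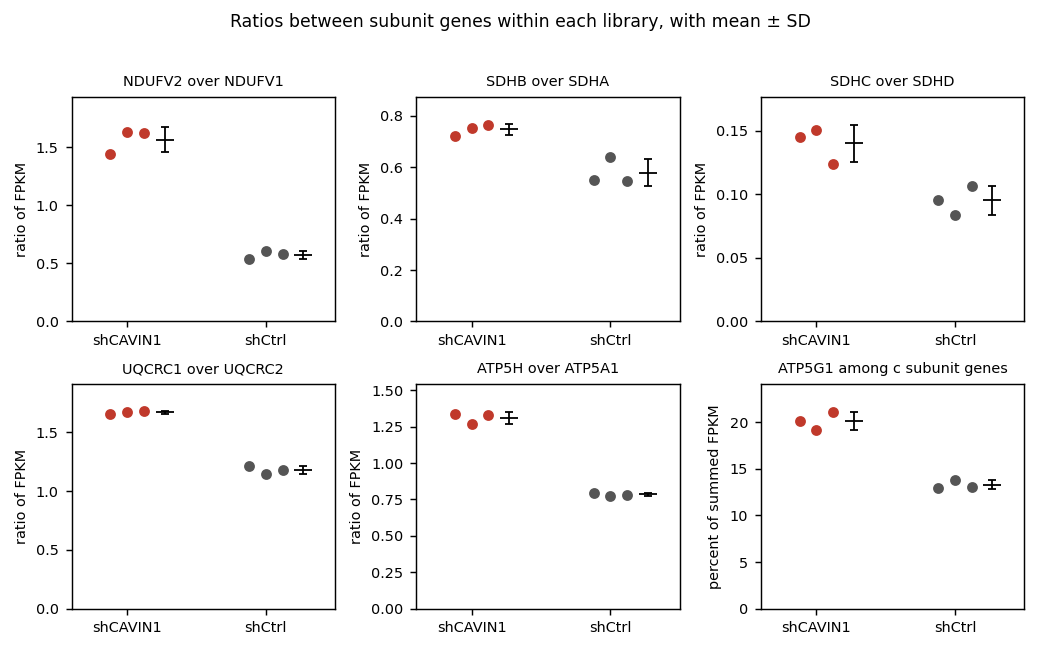
Ratios of FPKM between subunit genes within each library, and ATP5G1 as a percentage of the summed FPKM of the c subunit genes, with points for replicates 1 to 3 and the mean ± SD beside them. The groups are apart in all 6 panels, with NDUFV2 over NDUFV1 averaging 1.56 in shCAVIN1 and 0.575 in shCtrl.

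The direction of a subunit gene went with that of its chromosomal neighbours. For each gene, the median log2 fold change of the other tested genes within 5 Mb on either side was taken (GENCODE 29, GRCh38). Across the 75 subunit genes it correlated with the gene's own log2 fold change at Pearson r 0.68 and Spearman rho 0.70, against 0.34 and 0.47 across 12929 tested genes. These are correlations across genes of the same 6 libraries, genes in reach of each other share neighbours, and no p is given. The sets also differ in level (median mean FPKM 101 for the subunits and 9.04 for all tested genes). Genes of like level were not compared. Where the neighbours' median was above 0.2, 20 of 20 subunit genes rose, beside 59.1% of all tested genes in such places. Where it was below -0.2, 1 of 21 rose and 9 fell, beside 9.94% and 58.0% of all tested genes. In between, 14 of 34 rose and 5 fell, beside 24.2% and 26%. On chromosome 1, 6 of 6 subunit genes rose, beside 52.4% of all tested genes there (median 0.31, all tested genes 0.24), and on chromosome 19, 8 of 10 rose, beside 34.2% (median 0.35, all tested genes 0.10). On chromosome 11, 1 of 7 rose and 4 fell, near the 18.2% and 55.7% of all tested genes there (median -0.26, all tested genes -0.32). On chromosome 17, both subunit genes rose, beside 25.9% (median 0.65, all tested genes -0.05).

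Some of the leading genes kept their change against their neighbours and others did not. For the tests after subtraction, the neighbours' median was taken as a fixed number and the limma SE was kept. The error of that median is therefore not counted. ATP5G1 stood at 0.81 among neighbours with a median of -0.071, and remained past the threshold at 0.88 once that median was subtracted (adjusted p = 0.000425, limma SE kept). NDUFV1 lay among neighbours at -0.31 and remained lower at -0.57 (adjusted p = 0.000165, limma SE kept). NDUFS6 (neighbours -0.029, remainder -0.57) and NDUFB1 (neighbours 0.23, remainder 0.41) also passed. NDUFB11, at 0.62, had neighbours at 0.58 and a remainder of 0.036, and NDUFS1, at -0.55, had neighbours at -0.54 and a remainder of -0.012. Neither of these passed after subtraction. In all, 23 of 75 subunit genes were higher and 6 lower after subtraction. Together this share was below the background of 48.1% of tested genes (25.0% higher and 23.0% lower). Of the calls made before, 14 rises and 5 falls were called the same way after. For 9 others that passed before, the sign turned and the gene no longer passed: ATP5E, CYC1, NDUFB3, NDUFB6, NDUFC2, NDUFS3, NDUFS8, SDHC and SDHD. Another 21 kept their sign but no longer passed, NDUFB11 and NDUFS1 among them. They included NDUFV2 (adjusted p = 0.0706, limma SE kept), NDUFA10, ATP5D, SDHB, UQCRC1, UQCRH and UQCR11. COX5B, COX6C and COX7A2 were also among them, so no call made before subtraction in complex II or IV held. Other genes passed only after subtraction, ATP5G2, ATP5G3, ATP5J, ATP5O, COX7B, COX7C, COX8A, NDUFA1 and UQCR10 as higher and ATP5S as lower. Those of complex IV were COX7B, COX7C and COX8A (adjusted p = 0.0349, 0.0266 and 0.0182, limma SE kept).

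**Figure D4:**
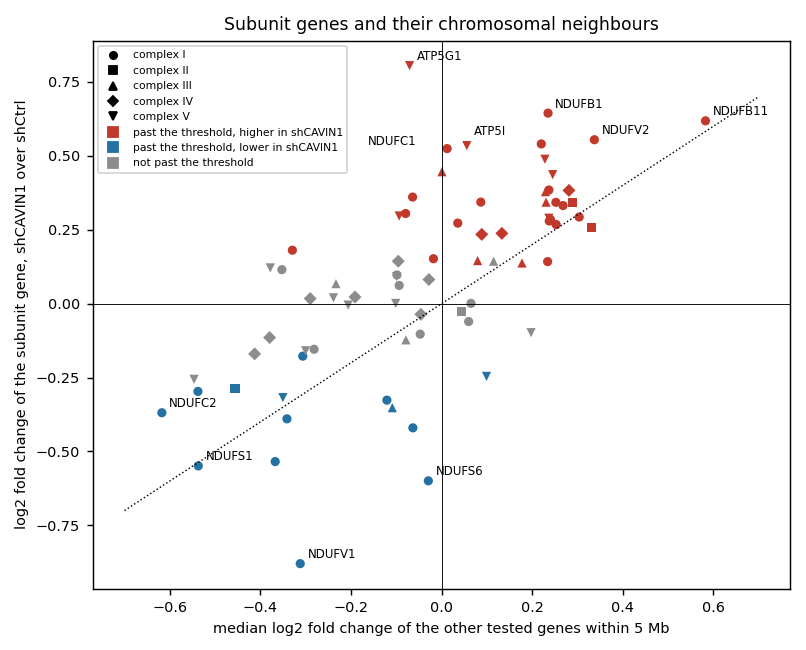
Log2 fold change of each subunit gene (vertical axis) against the median log2 fold change of the other tested genes within 5 Mb (horizontal axis), one point per gene, with the dotted line marking equality. Symbols give the complex and colours the call. NDUFB11 and NDUFS1 lie by the line, while ATP5G1 lies far above it and NDUFS6 and NDUFV1 far below.

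The promoters of the subunits were searched on both strands, over 300 bases (250 before and 50 after the start), for the letters of NRF1 (GCGCA, then any base N, then GCGC), of ETS factors such as GABPA (CCGGAAG) and of YY1 (AAGATGGC), which are known as regulators of respiratory genes. RefSeq had promoters for 65 of the 83 genes, 61 of them tested. The letters of NRF1 were in 15 of the 61 (24.6%), those of ETS factors in 18 (29.5%) and those of YY1 in 11 (18.0%), beside 12.1%, 19.8% and 5.51% of the promoters of tested genes and 6.29%, 10.7% and 3.03% of all promoters. None of the 3 sets of letters contains another. At least 1 of them was in 35 of 61 subunit promoters, beside 32.7% of the promoters of tested genes and 17.9% of all promoters. It was in 18 of 28 whose gene rose, in 13 of 20 whose gene did not pass and in 4 of 13 whose gene fell, the last a share near that of tested genes. These are matches of letters, not bound sites. By the GENCODE 29 spans, each printed stretch lies at least in part inside its gene, and those of NDUFV1 and UQCRC1 wholly. In the stretches printed above, ATP5I has the NRF1 letters at 2 places, UQCRC1 at 1 and SDHD at 1 with an ETS match (reverse strand) after it, while the ATP5G1, NDUFV1 and NDUFV2 stretches have none of the 3.

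The subunit genes were among the abundant ones. The median mean FPKM was 101 for the 75 genes and 9.04 for all tested genes, and 57 lay above the 90th percentile of tested genes. Their order by level was much the same in both groups, with a Spearman rho of 0.95 between the group means across genes. The sum over the genes of complex I averaged 3841 ± 31.2 FPKM in shCAVIN1 and 3538 ± 253 FPKM in shCtrl (SD, n = 3 each), and the lowest shCAVIN1 sum of 3823 lay just above the highest shCtrl sum of 3816. The sums averaged 297 ± 3.85 FPKM in shCAVIN1 and 304 ± 20.6 FPKM in shCtrl for complex II and 944 ± 9.56 FPKM in shCAVIN1 and 859 ± 78.6 FPKM in shCtrl for complex III. For complex IV they averaged 2761 ± 22.5 FPKM in shCAVIN1 and 2726 ± 232 FPKM in shCtrl, and for complex V 3059 ± 16.0 FPKM in shCAVIN1 and 2918 ± 241 FPKM in shCtrl. The groups overlapped in these other 4 complexes. The transcripts were short, with a median length of 750 bases against 2423 for all tested genes, and across the 75 genes log2 fold change and length had a Spearman rho of -0.31. In 43 of the 83, the annotation holds pseudogenes by name, with 17 for COX6C and 12 each for NDUFA5 and NDUFB4, so these values are uncertain. Among shCtrl libraries, replicate 2 had the highest FPKM for 70 of 75 subunit genes, beside 51.8% of tested genes, and for 68, beside 42.3%, after median-of-ratios scaling. Without it, 40 rose and 16 fell and no call was lost.

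Genes that build or surround the complexes were counted in the same way, against the same background of 55.5%. Of 8 tested subunits and companions outside the symbol rule, 3 rose and 1 fell. ATPIF1, the inhibitor of ATP synthase, was at 170.3 ± 8.59 FPKM in shCAVIN1 and 101 ± 8.94 FPKM in shCtrl (log2 0.75, limma adjusted p = 0.000408). The small ATP synthase proteins C14orf2 and USMG5 rose at log2 fold changes of 0.64 and 0.28, and the call of USMG5 was lost with the neighbours' median subtracted (adjusted p = 0.114) and without any 1 of the libraries except shCtrl replicate 2 (adjusted p up to 0.119). NDUFA4L2, a relative of NDUFA4 that is known to be induced by hypoxia, fell, at 1.95 ± 0.121 FPKM in shCAVIN1 and 3.40 ± 0.363 FPKM in shCtrl (log2 -0.67). COX4I1 (288 ± 5.11 FPKM in shCAVIN1 and 289 ± 24.3 FPKM in shCtrl), NDUFAB1 (log2 -0.17), COX7A2L (-0.12) and cytochrome c itself, CYCS (0.12), did not pass, and COX4I2 was listed at 0.

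Assembly factors went both ways. Of 16 for complex I, 4 rose and 5 fell (median -0.05), among them C17orf89, now NDUFAF8, at 117, 129.6 and 131 FPKM in shCAVIN1 and 63.2, 61.1 and 63.0 FPKM in shCtrl (log2 1.0), ACAD9 (0.55) and NDUFAF5 (-0.39). Of 13 for complexes II, III and V, 3 rose and 7 fell (median -0.31). BCS1L, which inserts the Rieske protein into complex III, was at 8.61 ± 0.606 FPKM in shCAVIN1 and 15.7 ± 0.797 FPKM in shCtrl (log2 -0.83, limma adjusted p = 0.000164), and LYRM7, a chaperone of the same protein, fell too (-0.48). ATPAF1, which helps assemble the F1 head, rose (0.56). Of 21 for complex IV, 5 rose and 4 fell (median 0.04), with COX10, an enzyme of heme A synthesis, lower (-0.39), as were COA4 (-0.55) and LRPPRC (-0.22), which binds mitochondrial mRNAs. With the neighbours' medians subtracted, NDUFAF5 and COA4 turned to 0.039 and 0.038 and their calls ended (adjusted p = 0.638 and 0.806, limma SE kept). The call of LRPPRC ended too (-0.10, adjusted p = 0.141, limma SE kept).

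Of 15 tested regulators of mitochondrial biogenesis, 1 rose and 6 fell (median -0.18). TFAM, which packages mitochondrial DNA and starts its transcription, was at 49.98 ± 0.420 FPKM in shCAVIN1 and 30.4 ± 2.72 FPKM in shCtrl (log2 0.71, limma adjusted p = 0.000335) among neighbours at a median of 0.48. ESRRA, a nuclear receptor that drives respiratory genes, was at 8.27 ± 0.517 FPKM in shCAVIN1 and 13.3 ± 0.679 FPKM in shCtrl (log2 -0.65, limma adjusted p = 0.000338), and POLG2, the accessory subunit of the mitochondrial DNA polymerase, fell (-0.52). Of 17 genes of the citric acid cycle and pyruvate dehydrogenase, 7 rose and 2 fell (median 0.04), with FH (fumarase, 0.56), SUCLG2 (0.49) and DLST (0.35) higher. Of 13 genes of coenzyme Q synthesis, 5 rose and 3 fell (median 0.09), with COQ10A higher (0.42) and COQ10B and ADCK3 lower (-0.64 and -0.30). Of 28 genes of protein import and cristae, 9 rose and 5 fell (median 0.05), led by the inner membrane translocase genes TIMM17B (0.80) and TIMM23 (0.76) and the cristae gene MINOS1 (0.65). The neighbours of TIMM17B and TIMM23 had medians of 0.55 and 0.57. Of 8 carriers and channels, 4 rose and 1 fell (median 0.15), with VDAC3, an outer membrane channel, at 0.58 and the adenine nucleotide carriers SLC25A6 and SLC25A4 at 0.46 and 0.43. SLC25A6 lay among neighbours at 0.64, and with that subtracted it was lower, at -0.18 (adjusted p = 0.0291, limma SE kept). The calls of DLST, COQ10B and SLC25A4 ended with their neighbours' medians subtracted (adjusted p = 0.0539, 0.175 and 0.0587).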

How the data were processed

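The authors deposited 1 table of FPKM values for 33117 gene symbols in 6 libraries. Per the labels' protocols, TRIzol was used for extraction and a stranded total RNA kit from Illumina for the libraries. Per the submitters' processing notes reads were placed on GRCh38, with CASAVA, TopHat and TopHat2 (2.2.5) named among the tools beside bcl2fastq 2.17.1.14. How fragments were counted and on what annotation or strand, and the depth, is not given in the sources used here, so no counting interval could be made.

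Genes with a mean FPKM of at least 0.5 were tested with limma 3.58.1 (R 4.3.3) on log2(FPKM + 0.5) values (group as the only term, variance trend, Benjamini-Hochberg adjustment over 13941 genes, adjusted p under 0.05). That scale understates changes of low genes. The procedure was also run on simulated data with few changed genes and independent noise between genes. That setting differs from these libraries and does not bear on the calls above. Positions, lengths and pseudogenes come from GENCODE 29 (GRCh38), which matched 23906 rows by symbol, and promoters from RefSeq (GRCh38.p14).

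The members and lists were chosen with earlier results of these data known. Genes were given with every library's value by rule: the 4 largest rises and falls and the 2 highest levels in each complex, core catalytic subunits, and tissue or copy forms. For 1 complex I gene this is not reported here. Companion lists give up to 3 genes of lowest adjusted p. Same-numbered libraries deviated from their group means with correlations of 0.0936, 0.0714 and -0.0282 across genes. These values cannot tell whether they shared a batch, and the numbers were not taken as pairs in the main test. Alternatives varied the pseudocount, filter, scaling, variances, pairing, libraries, and regional or length medians. Regional and length medians were subtracted from the log2 fold change as fixed numbers, with the SE of the main limma fit kept.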

Additional observations from a re-analysis of the deposited data

How the results depend on the processing

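The direction of the medians for the subunits held under every alternative, at 0.24 after TPM scaling and 0.06 to 0.17 with 1 library left out. TPM scaling left 7 subunit genes higher and 1 lower, 14 and 4 companions (41 and 34 of 139 in the main test) and 2199 and 1213 of all tested genes. Rescaling without the 10 most abundant rows left 36 subunit genes higher and 11 lower, beside 4652 and 3294 of all tested genes. Median-of-ratios scaling left 35 and 15, beside 3990 and 3906, and quantile normalization 35 and 16, beside 4278 and 3759. Subtraction of regional medians left 23 subunit genes higher and 6 lower, and 32 of 138 companions higher and 20 lower. With 1 library left out, subunit genes higher ran from 21 to 40 and lower from 7 to 16, all tested genes from 3038 to 4317 and from 3189 to 4194 with medians of -0.02 to -0.0032, companions from 31 to 51 and from 30 to 41, and CAVIN1 from -1.30 to -1.21. Calls of 6 subunit genes held under every alternative (ATP5G1, ATP5I, NDUFA7, NDUFB1 and NDUFC1 higher, NDUFV1 lower) and 14 under every one but TPM. The replicate block left 26 of 75 subunit genes higher and 10 lower (36 of 49 calls kept) and 3511 and 3656 of 13941 tested genes. There the share of subunit genes was below that of all tested genes, as it was with regional medians subtracted. Same-numbered libraries correlated at 0.0936, 0.0714 and -0.0282, and shCAVIN1 replicate 3 correlated best with shCtrl replicate 2. Correlations of deviations within groups of 3 cannot tell whether same-numbered libraries shared a batch. No pairing was taken in the main test. The median of all tested genes turned from -0.02 to 0.092 after TPM scaling, 0.046 after rescaling without the 10 most abundant rows, 0.012 after quantile normalization and 0.0022 with regional medians subtracted. The following subunit genes and named companions changed sign, with the value under the alternative in brackets. After TPM scaling, they were ATP5O (0.12), ATP5S (0.016), COX6A1 (0.086), COX7C (0.0080), NDUFA12 (0.019), NDUFB8 (0.062), SDHA (0.10), COX4I1 (0.12), COX7A2L (0.0037). After rescaling without the 10 most abundant rows, they were ATP5O (0.066), COX6A1 (0.035), NDUFB8 (0.0100), SDHA (0.043), COX4I1 (0.069). Under median-of-ratios scaling, they were ATP5O (0.0026), COX4I1 (0.0053). After quantile normalization, they were ATP5J (-0.024), COX5A (-0.017), COX6A1 (0.084), COX7C (0.012), NDUFB5 (-0.035), COX4I1 (0.074). With regional medians subtracted, they were ATP5C1 (0.14), ATP5E (0.032), ATP5L (0.29), ATP5O (0.20), COX6A1 (0.0095), COX7B (0.24), COX7C (0.27), CYC1 (-0.040), NDUFB3 (0.24), NDUFB5 (-0.064), NDUFB6 (-0.011), NDUFB9 (0.13), NDUFC2 (0.25), NDUFS3 (-0.092), NDUFS8 (0.13), SDHC (-0.074), SDHD (0.17), COX4I1 (0.068), NDUFAF5 (0.039), COA4 (0.038), SLC25A6 (-0.18). With length medians subtracted, they were ATP5B (-0.000027), NDUFB5 (-0.061), COX4I1 (0.0030). With 1 library left out, ATP5B ran from -0.039 to 0.053, ATP5J ran from -0.024 to 0.088, ATP5O ran from -0.053 to 0.055, COX4I1 ran from -0.071 to 0.049, COX5A ran from -0.069 to 0.090, COX6A1 ran from -0.092 to 0.033, COX6B1 ran from -0.0068 to 0.17, COX8A ran from -0.031 to 0.080, NDUFA12 ran from -0.20 to 0.011, NDUFB5 ran from -0.082 to 0.093, NDUFV3 ran from -0.0098 to 0.11, UQCR10 ran from -0.0021 to 0.15. Apart from NDUFS3, CYC1, SDHC, NDUFB6, ATP5E, NDUFS8, NDUFC2, NDUFB3, SDHD, NDUFAF5, COA4 and SLC25A6, which turned with regional medians subtracted, these subunits and named companions were not past the threshold in the main test. Of these, ATP5O, COX7B and COX7C passed as higher once regional medians were subtracted (adjusted p = 0.0451, 0.0349 and 0.0266, limma SE kept). Among the companions not named by the rule, 10 more that were past the threshold in the main test turned with regional medians subtracted, 2 of them (PET117 and APOOL) past the threshold on the other side at 0.35 and 0.24. The cause of these changes was not tested. Depth is unknown, and 2 or 3 libraries in a group limit what small changes can be told.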
